A study of Homo sapiens with 4 samples.

Results

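Imprinted genes are transcribed mainly from the copy inherited from 1 parent, and many of them act on growth before and after birth. The 10 genes described here were chosen by name from that class: DLK1, MEG3, H19, IGF2, CDKN1C, PEG3, PEG10, SGCE, NNAT and MEST. Earlier results of these data were known when these genes were chosen. Each matched 1 of the 64252 Ensembl gene IDs in the count table, and all 10 passed the low-count filter that kept 19610 genes. The libraries came from SK-N-BE(2), an established human neuroblastoma line with amplified MYCN, and each group held 2 of them. The control group (shScb) had received a scramble short hairpin RNA, and the knockdown group (shTTC8) a hairpin against TTC8, which encodes a subunit of the BBSome, a carrier of membrane proteins in the primary cilium. The labels give neither the hairpin's sequence nor the number of hairpins or separate cultures. The p-values therefore measure only the spread between these libraries, which may be technical, and effects of lower TTC8 and of the hairpin itself cannot be told apart.

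An imprint is a DNA methylation mark laid down in the egg or the sperm and kept in the body's cells. Imprinted genes lie in clusters, where 1 marked control region often sets the expression of neighbours in opposite ways. On chromosome 14 the paternal copy usually expresses DLK1, RTL1 and DIO3 and the maternal copy the noncoding RNAs MEG3, MEG8 and MEG9. On chromosome 11 the paternal copy usually expresses the growth factor gene IGF2 and the maternal copy the noncoding RNA H19, and the nearby CDKN1C is also maternal. PEG3, PEG10, SGCE, NNAT and MEST are usually paternal. In the embryo several of these genes are high in the sympathoadrenal lineage, from which neuroblastoma arises. Read counts hold no parental information, so all values below are sums over both copies.

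Totals ran from 38284663 to 55331449 counts per library. TTC8 fell from 196 and 191 CPM (counts scaled to a common library size) in the shScb libraries to 29.1 and 30.6 CPM in the shTTC8 libraries. Among markers of the line's adrenergic lineage, PHOX2A, HAND2, GATA3, ISL1, TH, DBH and CHGA each had at least 4619 counts in every library, and 5 of these 7 were lower and 1 higher in shTTC8. Summed markers of fibroblasts, cells that also express imprinted growth genes, stood at 683 to 705 CPM in shScb and 464 to 479 CPM in shTTC8, with 6 of 7 tested markers lower and 1 higher. Most of that sum was PDGFRB, THY1 and LUM, and the extracellular matrix genes DCN, LUM and COL1A1 fell furthest. LUM went from 191 and 180 CPM to 28.6 and 31.2 CPM, 6.20-fold lower and at rank 2 by p of all tested genes. DCN was 9.66-fold lower, COL1A1 4.19-fold lower and PDGFRB 1.33-fold lower. COL3A1, also a matrix gene, was only 1.34-fold lower. Schwann cell markers summed to 5.39 to 6.39 and 5.70 to 6.75 CPM, endothelial markers to 1.18 to 1.66 and 0.266 to 0.309 CPM, and blood cell markers to 15.9 to 16.7 and 4.06 to 4.74 CPM. VWF, the 1 tested endothelial marker, was 10.5-fold lower, and PTPRC carried most of the blood cell sum and was 4.70-fold lower. The defining markers PECAM1, SOX10 and CD3E had 0 counts in every library, where a count of 0 allows up to 3. The part of other cell types in the results below was not tested. In bulk RNA, fewer cells that express a gene and less RNA per cell cannot be told apart.

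Of the 10 genes, 7 rose in shTTC8 (DLK1, IGF2, CDKN1C, PEG3, PEG10, SGCE and NNAT), 2 fell (MEG3 and H19) and 1, MEST, was not called by edgeR's quasi-likelihood test with an adjusted p under 0.05. Across all tested genes 31.9% were called, 15.2% higher and 16.7% lower. Most members are well expressed, and among the 8244 tested genes with a mean of at least 20 CPM, 22.3% were higher and 25.2% lower. The members' median log2 fold change was 0.35, against 0.0035 over all tested genes. Since the members were chosen with earlier results of these data known, these values describe them and test nothing. The 2 groups did not overlap for 9 of the 10 members, nor for 65.5% of all tested genes. Without shTTC8 replicate 1 or without shTTC8 replicate 2, 5 members were higher and 1 was lower.

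**Figure D1:**
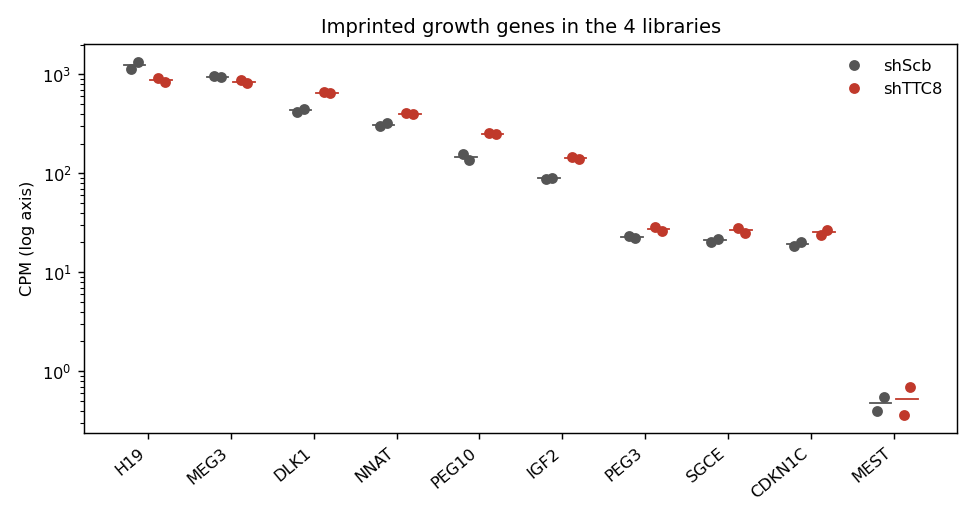
CPM of each member (log axis) in the 2 shScb libraries (grey points) and the 2 shTTC8 libraries (red points), with short lines at the group means. H19 and MEG3 lie lower in shTTC8, MEST overlaps at under 1 CPM, and the other 7 members lie higher in both shTTC8 libraries.

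Levels of different genes can be compared only per length. Per kilobase of annotated exon, the mean RPKM in shScb was 426 for H19, 234 for NNAT, 81.1 for DLK1, 40.9 for MEG3, 21.7 for PEG10, 12.7 for IGF2, 7.77 for CDKN1C, 2.31 for PEG3, 1.01 for SGCE and 0.0988 for MEST. No neighbours in that order overlapped between their shScb libraries. In shTTC8 the first neighbours no longer differed beyond their spread: H19 stood at 303 ± 21.5 RPKM and NNAT at 301 ± 5.22 RPKM (SD, n = 2). There PEG10, at 37.6 ± 0.937 RPKM, and MEG3, at 36.2 ± 1.81 RPKM (SD, n = 2), also overlapped, while the other members kept their places. The order depends on which length is used, since MEG3 and SGCE have 48 and 99 annotated transcripts. With the median transcript length MEG3 came second in shScb, at 586 RPKM after H19 at 1333, and SGCE (12.8 RPKM) stood beside CDKN1C (13.0 RPKM).

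The noncoding members come first, with the sequences at their start sites, because they are the members that fell. H19 and MEG3 are spliced RNAs that are not translated, and H19 is also the precursor of a microRNA. Of the 10 members, 3 had an entry in the RefSeq promoter table (GRCh38.p14): H19, MEG3 and MEST. Each promoter runs from 250 bases before to 50 bases after a start site, 5′ to 3′ on the gene's strand. For H19 it is chr11:2001217-2001516 on the minus strand, and for MEG3 the first of its 3 listed starts, chr14:100825858-100826157 on the plus strand. That MEG3 window lies inside the annotated span of the gene, 100779410 to 100861031. The start of that span, not of this window, is used for distances below. The following motifs were searched on both strands: the TATA motif TATAAA, the GC box motif GGGCGG and the E-box motif CACGTG, and capitals mark their matches.
H19 promoter: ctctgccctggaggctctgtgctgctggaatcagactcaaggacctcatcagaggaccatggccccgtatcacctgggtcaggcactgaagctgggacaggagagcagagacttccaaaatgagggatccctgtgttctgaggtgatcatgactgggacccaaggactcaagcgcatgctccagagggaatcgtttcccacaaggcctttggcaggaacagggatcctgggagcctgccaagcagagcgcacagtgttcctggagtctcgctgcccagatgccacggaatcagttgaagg
MEG3 promoter: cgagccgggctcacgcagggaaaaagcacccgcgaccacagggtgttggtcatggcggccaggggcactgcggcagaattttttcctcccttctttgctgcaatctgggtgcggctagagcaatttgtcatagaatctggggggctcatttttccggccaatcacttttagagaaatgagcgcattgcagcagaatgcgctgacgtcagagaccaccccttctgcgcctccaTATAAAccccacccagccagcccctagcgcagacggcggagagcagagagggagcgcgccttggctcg
The MEG3 promoter held 1 TATA motif, the H19 promoter held none, and neither held a GC box or an E-box of these letters. Over 34943 promoters of the same length, 11.6% held the TATA motif, 44.9% the GC box and 7.23% the E-box. The H19 promoter had 6 CG dinucleotides and the MEG3 promoter 19, against a median of 14 over all promoters. Such matches describe the letters in these windows and do not show binding or methylation.

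H19 (ENSG00000130600) is on chromosome 11, minus strand, at 1995176 to 2001470 (GRCh38). It had 1123 and 1342 CPM in the shScb libraries and 923 and 835 CPM in the shTTC8 libraries. Both shTTC8 libraries were below both shScb libraries, and shScb replicate 2 was the highest of the 4. H19 changed by -0.49 on the log2 scale (SE 0.09, edgeR adjusted p = 0.00219), to 0.713 of its level in shScb. The RNA carries the hairpin of 2 mature microRNAs on its own strand, shown here because they are cut from it. In each mature sequence the seed, bases 2 to 8, is in capitals.
hsa-miR-675-5p: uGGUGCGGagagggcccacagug
hsa-miR-675-3p: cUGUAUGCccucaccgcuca
These libraries measured long RNA, so the mature microRNAs themselves were not measured.

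IGF2 (ENSG00000167244) encodes insulin-like growth factor II, a fetal growth factor that acts through the receptor IGF1R and is cleared by IGF2R. Its span on chromosome 11 is 2129112 to 2149603 (GRCh38, minus strand). It stood at 86.7 and 90.6 CPM in shScb and at 147 and 139 CPM in shTTC8. The groups did not overlap, and IGF2 rose 1.61-fold (log2 fold change 0.69, SE 0.06, edgeR adjusted p = 1.05e-06). Some of its exonic bases are also annotated to the antisense gene IGF2-AS, whose counts were 1.69% of its own, and to INS-IGF2, which had 2 counts in all libraries together. IGF2-AS had a log2 fold change of 0.20 with an SE of 0.29 and was not called.

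H19 and IGF2 thus went in opposite directions, and their ratio within a library does not depend on how libraries are scaled. H19 had 13.0 and 14.8 times the counts of IGF2 in shScb replicates 1 and 2. In shTTC8 replicates 1 and 2 it had 6.28 and 6.01 times. The log2 ratio was 3.79 ± 0.14 in shScb and 2.62 ± 0.05 in shTTC8 (SD, n = 2), a difference of -1.17 that is larger than the spread within either group. With 2 libraries against 2, an exact permutation test cannot give a two-sided p below 0.333, so no test is given for the ratios.

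CDKN1C (ENSG00000129757) encodes a cyclin-dependent kinase inhibitor that holds cells out of the cycle, and its imprint belongs to a separate control region of chromosome 11 with the noncoding RNA KCNQ1OT1. Its GRCh38 span is 2883213 to 2885773 on the minus strand. CDKN1C stood at 18.4 and 20.1 CPM in shScb and at 24.0 and 26.8 CPM in shTTC8. It rose 1.32-fold (log2 fold change 0.40, SE 0.10, edgeR adjusted p = 0.00531), a call lost without shTTC8 replicate 2 (log2 fold change 0.32, edgeR adjusted p = 0.0724). GENCODE 29 gives 5 transcripts the symbol CDKN1C outside its primary assembly, and none for the other members. The count table also holds an ID that no table used here names, ENSG00000273707, with 686 and 805 counts in shScb and 755 and 874 in shTTC8, against 929 and 1094, then 934 and 1111 for CDKN1C. Whether it is a further copy of CDKN1C was not settled, so the level of CDKN1C may be understated. With that ID added, a sum made after its values were seen, the log2 fold change was 0.45 (SE 0.09, edgeR adjusted p = 0.000924). The nearest tested neighbours of CDKN1C were not called: KCNQ1OT1 had a log2 fold change of -0.28 (edgeR adjusted p = 0.282) and SLC22A18 one of -0.11 (edgeR adjusted p = 0.769). Of 5 tested inhibitors of the same and the related INK4 family, 3 rose and none fell, although 1 was lower without shTTC8 replicate 2. Over all tested genes 15.2% were higher and 16.7% lower. CDKN1A, the p53-induced inhibitor, rose by 0.68 on the log2 scale (SE 0.11). CDKN2C rose by 0.23 (SE 0.06) and CDKN2D by 0.55 (SE 0.16), but without shTTC8 replicate 1 neither was called (edgeR adjusted p = 0.118 and 0.163), nor was CDKN2C without shTTC8 replicate 2 (0.0607) or CDKN2D without shScb replicate 2 (0.0508).

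On chromosome 14, DLK1 (ENSG00000185559) encodes a membrane protein with EGF-like repeats that is related to Notch ligands and is kept by immature cells, among them those of the adrenal medulla. The gene lies on the plus strand from 100725705 to 100738224 in GRCh38. DLK1 stood at 419 and 443 CPM in shScb and at 661 and 645 CPM in shTTC8. The groups were clearly apart, and DLK1 rose 1.52-fold (log2 fold change 0.60, SE 0.06, edgeR adjusted p = 3.25e-06).

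MEG3 (ENSG00000214548) is annotated from 100779410 to 100861031 on the same strand. It stood at 955 and 946 CPM in shScb and at 870 and 811 CPM in shTTC8. The groups did not overlap, but the change was the smallest of the 9 called members, at -0.18 on the log2 scale (SE 0.06, edgeR adjusted p = 0.0393). MEG3 was no longer called when shTTC8 replicate 1 (edgeR adjusted p = 0.0976) or 2 (0.414) was left out, with library size as the only scaling (0.105) and without robust fitting (0.0589). MEG3 had 2.28 and 2.14 times the counts of DLK1 in shScb replicates 1 and 2, and 1.32 and 1.26 times in shTTC8 replicates 1 and 2. The log2 ratio fell from 1.14 ± 0.07 to 0.36 ± 0.05 (SD, n = 2), a difference of -0.78, again larger than the spread within a group.

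**Figure D2:**
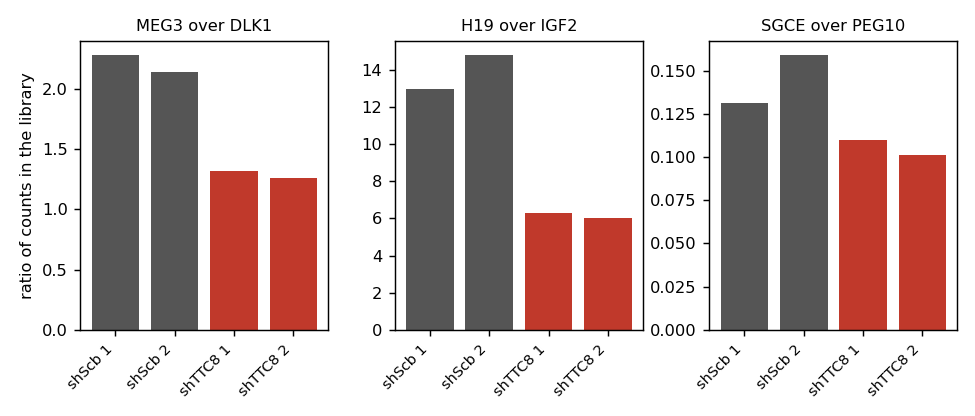
Ratio of the counts of 2 members within each library (vertical axis, from 0), for MEG3 over DLK1, H19 over IGF2 and SGCE over PEG10. Grey bars are shScb and red bars shTTC8 libraries, and in each pair both red bars are lower than both grey ones.

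The other genes of the chromosome 14 cluster are taken from the span between the DLK1 and DIO3 start sites, 836 kb apart, a span chosen after its values were seen. It held 10 tested genes, the members DLK1 and MEG3 among them. Of these 10, 7 were higher, DLK1 included, and 1, MEG3, was lower, beside 15.2% higher and 16.7% lower over all tested genes. Without shTTC8 replicate 2, 4 were higher and 0 lower, and 5 were higher without shScb replicate 1 or without shTTC8 replicate 1. In the 500 kb on either side of DLK1, a window that ends before DIO3, 15 other genes were tested, of which 4 were higher and 2 lower, with a median log2 fold change of -0.01. RTL1, a gene derived from a retrotransposon that is needed in the placenta and in muscle, stood at 3.19 and 3.04 CPM in shScb and at 12.7 and 10.7 CPM in shTTC8 (log2 fold change 1.91, SE 0.16, edgeR adjusted p = 4.73e-07). DIO3, the deiodinase that inactivates thyroid hormone, was counted 6 and 14 times in shScb and 100 and 118 times in shTTC8. The fitted log2 difference was 3.82, with an SE of 0.38 (edgeR adjusted p = 3.21e-06). Its divergent neighbour DIO3OS had 15 and 16 counts in shScb and 173 and 185 in shTTC8 (log2 fold change 3.90, SE 0.28, edgeR adjusted p = 1.36e-07). These 3 genes are low in every library, and all 3 kept their calls whichever library was left out.

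Among the maternal noncoding genes of the span, MEG8 had a log2 fold change of 0.39 with an SE of 0.23 (edgeR adjusted p = 0.226) and was not called. MEG9 stood at 9.63 and 10.7 CPM in shScb and at 12.9 and 12.8 CPM in shTTC8 (log2 fold change 0.34, edgeR adjusted p = 0.0413), a call lost without shScb replicate 1 (0.193), without shTTC8 replicate 1 (0.177) and without shTTC8 replicate 2 (0.129). MIR493HG was not called, at a log2 fold change of 0.07 (SE 0.21). MIR770, which lies inside MEG3 and shares 98 exonic bases with it, had a log2 fold change of 0.93 (edgeR adjusted p = 0.0308), opposite in sign to MEG3, on 40 and 62 counts in shScb and 75 and 73 in shTTC8. That call was lost when shScb replicate 1 (0.177), shTTC8 replicate 1 (0.125) or shTTC8 replicate 2 (0.0622) was left out. On the other side of DLK1, away from DIO3, 8 genes were tested within 500 kb. None of them was higher and 1, YY1, was lower; the nearest, BEGAIN, was not called (log2 fold change -0.21, edgeR adjusted p = 0.115), although it was without shScb replicate 1 (-0.29, edgeR adjusted p = 0.0310).

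RTL1 lies opposite to a run of maternal microRNAs. Inside its annotated span the RefSeq table places 5 hairpins with 10 mature microRNAs on the plus strand, against RTL1 on the minus strand. No source used here states that reads were counted by strand, so reads of RTL1 and of an antisense microRNA precursor cannot be told apart in this region. The 3p arms of 2 of these hairpins are shown as examples of antisense sequence, with seeds in capitals and no seed in common.
hsa-miR-127-3p: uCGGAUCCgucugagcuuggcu
hsa-miR-433-3p: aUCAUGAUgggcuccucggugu
The microRNA genes MIR127 and MIR433 had 0 counts of their own in all 4 libraries.

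**Figure D3:**
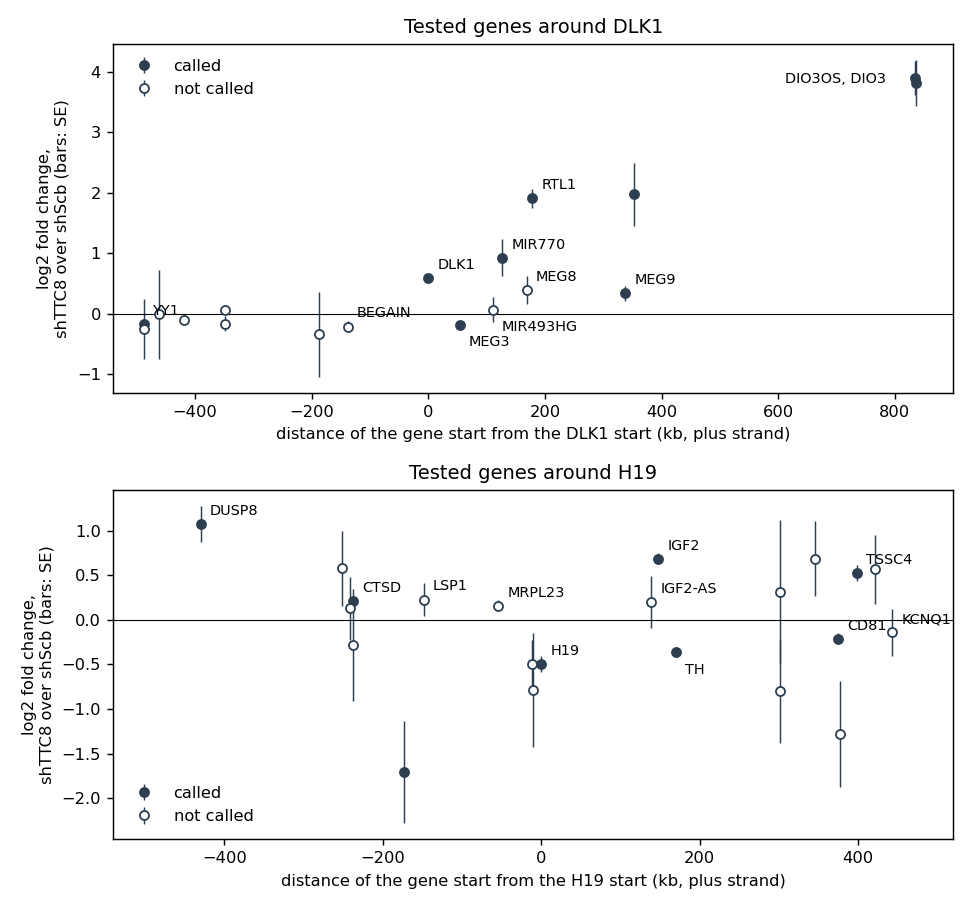
Log2 fold change of shTTC8 over shScb (points, with SE bars) of the tested genes around DLK1 (upper panel) and H19 (lower panel), against the distance of their start sites in kb. Filled points were called; around DLK1 the higher genes lie on the side of DIO3, and around H19 called genes lie on both sides of 0.

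Beside 15.2% higher and 16.7% lower over all tested genes, 4 of the 21 tested genes within 500 kb of H19 were higher and 3 lower. Their median log2 fold change was 0.16. The nearest tested neighbour of H19 on the side away from IGF2, LINC01219, was not called (log2 fold change -0.79, SE 0.64). The tyrosine hydroxylase gene TH, 22.3 kb from the IGF2 start, went from 548 and 574 CPM in shScb to 446 and 426 CPM in shTTC8 (log2 fold change -0.36, SE 0.06, edgeR adjusted p = 3.26e-04), opposite in direction to IGF2.

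PEG10 and SGCE start 0.247 kb apart on opposite strands of chromosome 7. PEG10 (ENSG00000242265), from 94656325 to 94669695 in GRCh38, derives from a retrotransposon, makes a virus-like Gag protein and is needed for the placenta. It stood at 155 and 136 CPM in shScb and at 256 and 247 CPM in shTTC8. PEG10 rose 1.73-fold (log2 fold change 0.79, SE 0.07, edgeR adjusted p = 7.21e-07). Its p was the smallest of the 10 members, at rank 311 of 19610 tested genes. The genes with the most similar pattern over the 4 libraries were AP3B2, JADE2 and CSRNP3, at distances of 0.0325, 0.0474 and 0.0538 in centred log2 CPM among 12002 genes with a mean of at least 5 CPM. With 4 libraries in 2 groups this likeness mainly repeats the size of the group difference.

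SGCE (ENSG00000127990), from 94524204 to 94656572, encodes epsilon-sarcoglycan, a membrane protein whose loss causes myoclonus dystonia. It stood at 20.3 and 21.7 CPM in shScb and at 28.1 and 25.0 CPM in shTTC8. SGCE rose 1.26-fold (log2 fold change 0.34, SE 0.09, edgeR adjusted p = 0.0134), a call lost without shTTC8 replicate 1 (log2 fold change 0.25, edgeR adjusted p = 0.192). It shares 219 exonic bases with PEG10, whose counts were 817% of its own, so its value is uncertain. PEG10 had 7.62 and 6.28 times the counts of SGCE in shScb replicates 1 and 2, and 9.10 and 9.89 times in shTTC8 replicates 1 and 2. The log2 ratio of SGCE over PEG10 was -2.79 ± 0.20 in shScb and -3.25 ± 0.09 in shTTC8 (SD, n = 2). CASD1, the next tested gene on 1 side, was not called (log2 fold change -0.06, SE 0.08). PPP1R9A, on the other, had a log2 fold change of 0.99 (edgeR adjusted p = 0.0320) at 0.732 and 0.846 CPM in shScb and 1.29 and 1.86 CPM in shTTC8, a call lost when shScb replicate 1 (0.101) or shTTC8 replicate 2 (0.261) was left out. Of the other sarcoglycan genes, 2 of 5 were tested: SGCZ had a log2 fold change of -0.83 (edgeR adjusted p = 0.0108; 0.0717 without shTTC8 replicate 2), and the other was not called.

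NNAT (ENSG00000053438) encodes neuronatin, a small membrane protein of the endoplasmic reticulum in neuroendocrine cells and neurons. It sits inside the gene BLCAP on chromosome 20, at 37521206 to 37523693 (GRCh38, plus strand). NNAT stood at 303 and 319 CPM in shScb and at 406 and 396 CPM in shTTC8. It rose 1.29-fold (log2 fold change 0.37, SE 0.06, edgeR adjusted p = 2.76e-04). BLCAP, on the opposite strand, rose by 0.47 on the log2 scale (SE 0.07, edgeR adjusted p = 1.23e-04), from 49.4 and 46.7 CPM to 67.2 and 66.1 CPM. The pair shares 85 exonic bases and BLCAP had 16.0% of the counts of NNAT. Of 9 tested genes within 500 kb of NNAT, 5 were higher and 2 lower, beside 15.2% and 16.7% over all tested genes. In the same window around IGF2, 2 of 20 tested genes were higher and 4 lower, and around CDKN1C 1 and 2 of 12. Around PEG3 these were 1 and 1 of 22, around MEST 1 and 1 of 5, and around MEG3 5 and 0 of 12. PEG10 and SGCE each had 3 tested genes there, 2 of them higher and 0 lower. The nearest tested neighbour of NNAT on 1 side, SRC, rose by 0.40 (SE 0.07). The nearest on its other side, the unnamed ENSG00000276603, had 7 to 27 counts a library and was not among the called genes (edgeR adjusted p = 0.244).

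PEG3 (ENSG00000198300), a zinc finger gene that acts on maternal behaviour and growth in mice, is on chromosome 19, minus strand, at 56810077 to 56840728 (GRCh38). It stood at 23.2 and 22.0 CPM in shScb and at 28.4 and 26.2 CPM in shTTC8. Its rise of 1.21-fold was the smallest among the 7 higher members (log2 fold change 0.27, SE 0.09, edgeR adjusted p = 0.0302). Its call did not hold when shScb replicate 2 (edgeR adjusted p = 0.0698), shTTC8 replicate 1 (0.259) or shTTC8 replicate 2 (0.0571) was left out, with no low-count filter (0.0802) and by DESeq2 (0.0565). ZIM2, which shares 1264 exonic bases with PEG3, had 4 or 5 counts in each library and was not tested. The nearest tested genes on either side of PEG3, ZIM2-AS1 and MIMT1, were not among the called genes (edgeR adjusted p = 0.509 and 0.384).

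MEST (ENSG00000106484), which encodes a protein of the hydrolase fold, is high in embryonic mesoderm. Its span on chromosome 7 is 130486171 to 130506465 (GRCh38, plus strand). MEST was counted 20 and 30 times in shScb and 14 and 29 times in shTTC8, or 0.396, 0.552, 0.360 and 0.701 CPM. The groups overlapped, and no change was detectable at this depth (log2 fold change 0.16, SE 0.49, edgeR adjusted p = 0.84). The interval of 2 SE on either side runs from -0.82 to 1.15. COPG2, with which MEST has 228 exonic bases in common, had 7810% of its counts, so even these few may be reads of COPG2. COPG2 was not called (log2 fold change 0.13, SE 0.08), and CEP41, the nearest tested gene on the other side, had a log2 fold change of 0.31 (edgeR adjusted p = 0.0113; 0.140 without shTTC8 replicate 2).

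Of 48 other imprinted genes listed, 33 were tested. Beside 15.2% higher and 16.7% lower over all tested genes, 8 of these 33 were higher and 4 lower. Their median log2 fold change was 0.15. The 4 with the smallest p were RTL1, described above, and 3 that fell. DDC, the decarboxylase that makes dopamine, went from 376 and 382 CPM to 212 and 208 CPM (log2 fold change -0.85, SE 0.06). UBE3A, a ubiquitin ligase gene lost in Angelman syndrome, went from 121 and 110 CPM to 64.3 and 65.4 CPM (log2 fold change -0.83, SE 0.07), and overlaps exons of SNHG14, whose counts came to 53.9% of its own. LRRTM1, a synaptic adhesion gene, changed by -0.83 (SE 0.07). DDC and LRRTM1 are imprinted only in some tissues. PLAGL1, a transcription factor of the imprinted gene network, was barely expressed and not called (0.356 and 0.313 CPM in shScb, 0.566 and 0.507 CPM in shTTC8). On chromosome 15, and named outside the rule, SNRPN rose by 0.64 (SE 0.07) and NDN by 0.36 (SE 0.08). The call of NDN was lost without shTTC8 replicate 2 (log2 fold change 0.33). SNRPN overlaps exons of SNHG14, whose counts came to 30.4% of its own. MAGEL2, on the same chromosome and also outside the rule, went the other way but was not called (log2 fold change -1.03, SE 0.48). It stood at 0.752 and 0.718 CPM in shScb and at 0.232 and 0.483 CPM in shTTC8.

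**Figure D4:**
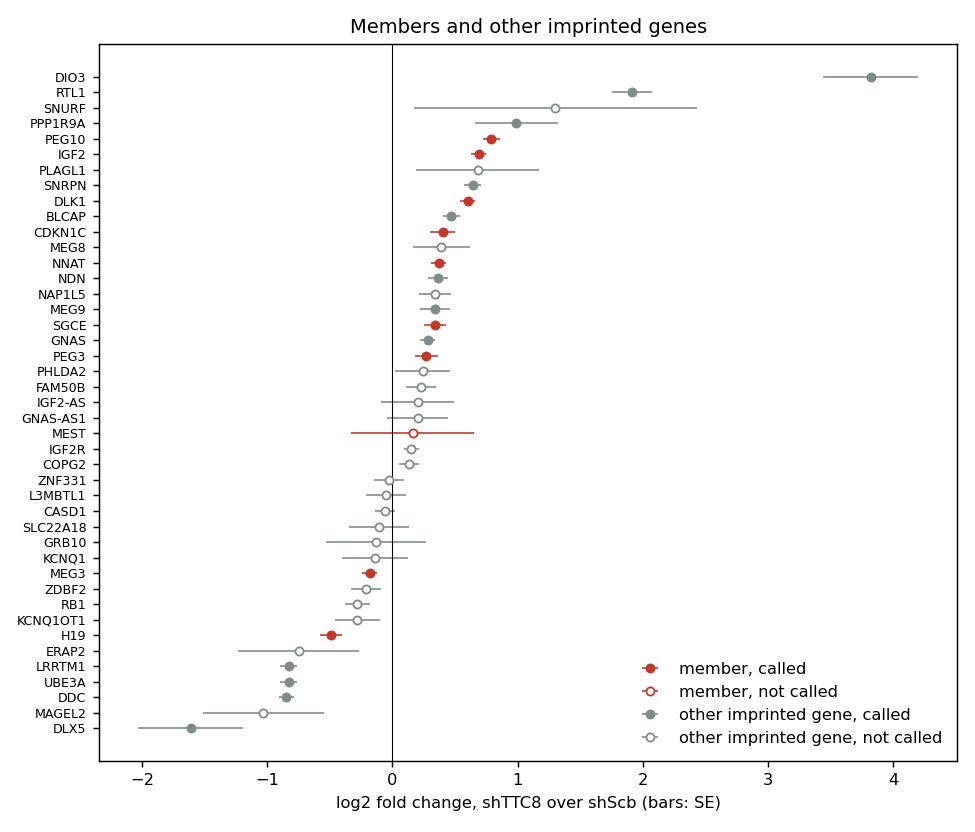
Log2 fold change of shTTC8 over shScb (horizontal axis, bars are SE) of the 10 members (red) and 33 other tested imprinted genes (grey), ordered by value; filled points were called. DIO3 and RTL1 lie furthest to the right, and 7 members lie to the right of 0 as filled points.

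Sorted by the parental copy that is usually expressed, a grouping made after the values were seen, 6 of the 7 paternal members were higher and none was lower, beside 15.2% higher and 16.7% lower over all tested genes. Of the 3 maternal members 2 were lower and 1, CDKN1C, was higher. Without shTTC8 replicate 1 these were 4 higher paternal members and 1 lower maternal member, and without shTTC8 replicate 2 the maternal members had 1 lower and 0 higher. Among the other imprinted genes, 4 of 12 tested paternal genes were higher and none lower, and of 8 tested maternal genes 2 were higher and 1 lower. Both of these higher genes, MEG9 and PPP1R9A, lost their calls without shScb replicate 1 and without shTTC8 replicate 2, and 1 of them without shTTC8 replicate 1. Neither was called by DESeq2, by limma-voom or with no low-count filter. The absence of lower genes among the other paternal genes did not hold when shScb replicate 2 was left out. The 12 and 8 genes are only part of the 33 other imprinted genes tested. Most of the 4 lower ones, DDC and LRRTM1 among them, and some of the 8 higher ones were sorted into neither group. LRRTM1 changed by -0.83 (SE 0.07), so the number of lower genes in each group depends on this sorting. The counts are too few to set these groups against the background, and no test was made of the difference.

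The receptors and carriers of IGF2 moved both ways. Of 17 tested genes of the IGF axis 3 were higher and 6 lower, with a median log2 fold change of -0.12. The shares over all tested genes were 15.2% higher and 16.7% lower. IGF1R stood at 164 and 160 CPM in shScb and at 190 and 181 CPM in shTTC8 (log2 fold change 0.20, edgeR adjusted p = 0.0192), a call lost without shTTC8 replicate 1 (0.254) and without shTTC8 replicate 2 (0.0709). IGF2R was not called (0.15, edgeR adjusted p = 0.0652), although it was without shScb replicate 1 (0.0255). IGFBP2, which binds IGF2 outside the cell, fell from 689 and 773 CPM to 591 and 561 CPM (log2 fold change -0.35, SE 0.07). IRS1, the adaptor below the receptor, changed by -0.84 (SE 0.09). IGF2BP3, which binds IGF2 messenger RNA, changed by -0.40 (SE 0.06) and overlaps exons of MALSU1, whose counts came to 34.5% of its own. IGFBP7 had a log2 fold change of 2.25 (SE 0.23) but overlaps exons of POLR2B, whose counts came to 5510% of its own. The number of higher genes in this list was 5 without shScb replicate 1 and 1 without shTTC8 replicate 2.

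Notch receptors, ligands and targets, listed because DLK1 resembles Notch ligands, gave 5 higher and 3 lower of 11 tested genes, with 1 lower without shTTC8 replicate 2. NOTCH3 changed by -1.19 (SE 0.08), while the ligand genes JAG1 and JAG2 rose by 1.15 (SE 0.23) and 0.54 (SE 0.13) and the target HEY1 by 0.53 (SE 0.10). Of 17 tested genes that act on imprints or DNA methylation, 3 were higher and 1 lower, with a median log2 fold change of 0.05. Over all tested genes 15.2% were higher and 16.7% lower, which is the background for both lists. SMCHD1, a chromatin protein that silences imprinted clusters, changed by -0.66 (SE 0.10). CTCF, which binds the H19 control region, had a log2 fold change of 0.19 (SE 0.06), TRIM28 one of 0.25 (SE 0.06) and UHRF1 one of 0.19 (SE 0.06). All 3 of these calls were lost without shTTC8 replicate 1 (edgeR adjusted p = 0.196, 0.112 and 0.301), and those of CTCF and UHRF1 also without shTTC8 replicate 2 (0.126 and 0.0896). Without shScb replicate 2, 3 genes of the list were lower.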

How the data were processed

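Sequencing libraries were built from TRIzol-extracted total RNA by a TruSeq RNA kit, per the labels' protocols. HISAT2 2.2.0 and hg38 were used, per the submitters' processing notes. The read counter, its strand setting and its gene annotation: not given in the sources used here. Whole-number counts per Ensembl gene, not normalized, are what the authors deposited, in 1 column per library, and all 4 columns were used. The supplied name table gave symbols for 56105 IDs and GENCODE 29 for another 486; 7661 had no name. 1 of these may be a further copy of CDKN1C, as given beside its values; the others were not searched for copies of members. Positions, exons and lengths are those of GENCODE 29 (GRCh38, the assembly named hg38).

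In R 4.3.3, edgeR 4.0.16 kept genes by filterByExpr, scaled libraries by TMM and compared the groups by its quasi-likelihood F test (robust, two-sided), with Benjamini-Hochberg adjustment over 19610 genes at 0.05. CPM use TMM-scaled library sizes, RPKM divide them by exonic length, and the SE was obtained by dividing the absolute log2 fold change by the root of F. Errors on 2 libraries are SDs. Replicates differed by more than sampling noise (chi-square per degree of freedom 11.4 in shScb and 6.40 in shTTC8). The biological coefficient of variation was 10.5%.

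The members and gene lists were chosen with earlier results of these data known, so nothing was adjusted over a list alone and no gene-set test was made. Named genes were the members, TTC8, the 4 smallest p among called genes of each list, 9 fixed genes, the nearest tested gene on each side of a member and the 3 genes most like the member with the smallest p; others are marked in the text or stand in it as neighbours. Alternatives were other scalings and filters, DESeq2 1.42.0, limma-voom (3.58.1), non-robust fitting, a replicate block and leaving out each library. Of the adrenergic markers listed, 1 is not reported here.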

Additional observations from a re-analysis of the deposited data

How the results depend on the processing

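DLK1, H19, IGF2, PEG10 and NNAT kept their direction and their call in every alternative run. TTC8 did too. MEG3 lost its call with library size alone (log2 fold change -0.14) and without robust fitting (-0.18), which left 1 member lower in each of these settings, and ranged from -0.23 to -0.12 when each library was left out. PEG3 lost its call with no low-count filter (0.25) and by DESeq2 (0.28). When each library was left out, PEG3 ranged from 0.22 to 0.33, CDKN1C from 0.32 to 0.48, SGCE from 0.25 to 0.42 and MEST, never called, from -0.39 to 0.56. Lower members numbered 1 to 2 in those fits. Higher genes among all those tested numbered 1880 to 3395, with 1880 without shTTC8 replicate 1. Genes that were not called and changed sign there were MIR493HG (-0.05 to 0.18), IGF2-AS (-0.23 to 0.54), ZIM2-AS1 (-0.04 to 1.01) and MIMT1 (-0.26 to 1.25). The ratio differences stayed between -0.83 and -0.73 for MEG3 over DLK1, -1.27 and -1.08 for H19 over IGF2, and -0.60 and -0.32 for SGCE over PEG10. The cause of the lost calls was not tested. Scaling by library size alone moved the median of all genes from 0.0035 to 0.045. Same-numbered libraries share only a number (correlation of their deviations from the group means 0.0317). With the replicate block 3092 genes were higher and 3343 lower, and 7 members were higher and 2 lower, as without it. Each member's symbol has 1 ID in the table, so summing by symbol could not show a copy that carries no name; the sum of CDKN1C with such an ID, chosen after seeing the data, gave 0.45.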
